A study of Mus musculus with 26 samples.

Results

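The 9 genes described here are activity-regulated genes of neurons: the transcription factors Egr1, Egr2, Egr3 and Egr4, the nuclear receptors Nr4a1, Nr4a2 and Nr4a3, the transcription factor Npas4 and the synaptic gene Arc. They were chosen by name, with earlier results of these data known, as the rows whose Ensembl identifier maps to these symbols. All 9 were found among 39179 gene entries. All 9 also passed the filter on low counts and were among the 16325 genes tested.

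Total RNA of C57BL/6J mouse cortex, dissected to hold the stroke core with a rim of tissue around it, was sequenced 3 days after focal ischemia, or after a sham operation at a time the labels do not give separately. Mice had been fed a diet with 60% or 6% of calories from fat, called the high-fat and the control diet below, for 6 or 15 weeks. The 26 libraries form 6 groups. After 6 weeks of feeding, sham cortex gave 3 libraries per diet, and stroke cortex gave 4 for the control and 6 for the high-fat diet. After 15 weeks, stroke cortex again gave 4 and 6 libraries for these diets, and none of the 26 libraries is of sham cortex at 15 weeks. All mice are of 1 inbred strain and carry no named allele, and their age, sex and body weight are not given in the labels. The labels do not say that each library is a separate animal, so every p-value measures the spread between these libraries. Replicate numbers below only name libraries, in the order they are listed. The labels give no dates, and weeks on the diet cannot be told apart from age or from the time of the experiment.

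Activity-regulated genes of this kind are transcribed within minutes of synaptic input and calcium entry, with no need for new protein, through factors such as SRF with its ternary complex partners, CREB with its CRTC coactivators, and MEF2. EGR proteins are zinc finger factors that bind GC-rich sites, and some of them, such as EGR1, are held back by the corepressors NAB1 and NAB2. NR4A proteins are orphan nuclear receptors whose activity depends mainly on how much of them is made, Npas4 is a neuron-specific bHLH-PAS factor that pairs with ARNT proteins, and Arc encodes a capsid-like protein that acts in the removal of AMPA receptors from synapses. Their levels in dissected brain are known to respond to handling and behaviour shortly before death as well as to injury. In whole tissue, fewer neurons and less RNA per neuron cannot be told apart.

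Promoter windows from RefSeq (GRCm38.p6) were matched by symbol for 6 of the 9 genes, Egr2, Egr4, Nr4a1, Nr4a2, Nr4a3 and Npas4, while Egr1, Egr3 and Arc are named only. The match to the 9 genes left out windows on 1 chromosome, and no promoter of Egr1, Egr3 or Arc was searched for motifs. Egr2 had 5 windows in the table, of which a window with the most matches is shown, and each of the others had 1. The windows below run 5′ to 3′ from 250 bases before to 50 bases after the transcription start, and are shown because they let the cyclic AMP response core TGACG, present in each window shown, be seen in place. Capitals mark TGACG or its reverse complement CGTCA, the CArG box bound by SRF, and TATAAA or its reverse complement.
Egr2 (chr10:67537619-67537918, plus strand): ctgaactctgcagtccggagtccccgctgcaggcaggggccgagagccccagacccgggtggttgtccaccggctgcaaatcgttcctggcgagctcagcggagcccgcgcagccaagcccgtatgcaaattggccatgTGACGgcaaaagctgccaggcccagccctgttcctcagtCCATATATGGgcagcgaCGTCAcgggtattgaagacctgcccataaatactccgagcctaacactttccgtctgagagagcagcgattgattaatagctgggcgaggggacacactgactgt
Egr4 (chr6:85513540-85513839, minus strand): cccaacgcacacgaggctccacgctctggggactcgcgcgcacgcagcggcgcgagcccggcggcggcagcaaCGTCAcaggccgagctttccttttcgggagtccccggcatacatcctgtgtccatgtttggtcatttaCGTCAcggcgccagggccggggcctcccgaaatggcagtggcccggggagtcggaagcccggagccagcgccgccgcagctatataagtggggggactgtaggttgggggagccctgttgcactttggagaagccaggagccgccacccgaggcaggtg
Nr4a1 (chr15:101266596-101266895, plus strand): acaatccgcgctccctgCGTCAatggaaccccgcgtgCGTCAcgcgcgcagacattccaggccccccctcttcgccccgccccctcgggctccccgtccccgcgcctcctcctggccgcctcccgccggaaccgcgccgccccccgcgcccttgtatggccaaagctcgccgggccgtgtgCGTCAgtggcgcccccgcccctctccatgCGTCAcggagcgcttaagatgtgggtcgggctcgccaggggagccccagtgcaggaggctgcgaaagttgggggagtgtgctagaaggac
Nr4a2 (chr2:57123954-57124253, minus strand): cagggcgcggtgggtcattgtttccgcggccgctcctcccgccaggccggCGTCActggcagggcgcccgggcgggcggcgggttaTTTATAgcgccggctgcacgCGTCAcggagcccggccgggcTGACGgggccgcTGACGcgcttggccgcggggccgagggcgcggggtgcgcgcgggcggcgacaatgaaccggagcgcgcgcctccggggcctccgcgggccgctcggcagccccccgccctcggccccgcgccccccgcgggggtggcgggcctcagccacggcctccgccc
Nr4a3 (chr4:48045055-48045354, plus strand): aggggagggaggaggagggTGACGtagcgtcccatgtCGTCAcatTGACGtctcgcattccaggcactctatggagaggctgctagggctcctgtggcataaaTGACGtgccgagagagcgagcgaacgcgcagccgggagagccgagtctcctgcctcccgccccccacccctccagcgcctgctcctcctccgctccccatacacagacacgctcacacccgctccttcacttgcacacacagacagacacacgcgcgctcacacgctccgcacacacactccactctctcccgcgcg
Npas4 (chr19:4989922-4990221, minus strand): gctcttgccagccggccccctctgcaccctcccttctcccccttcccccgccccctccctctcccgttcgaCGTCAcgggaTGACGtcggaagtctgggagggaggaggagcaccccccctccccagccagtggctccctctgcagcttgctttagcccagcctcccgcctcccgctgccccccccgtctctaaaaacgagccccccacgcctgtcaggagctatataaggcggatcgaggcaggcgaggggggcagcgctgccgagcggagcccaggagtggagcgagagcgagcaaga

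The core TGACG, searched on both strands, was found in 5 of 5 genes with a single window and in 3 overlapping windows of the 5 of Egr2, which hold the same 2 cores. It was in 20.8% of 32851 windows in the table, which were not matched on base composition. The shown windows of Nr4a1, Nr4a2 and Nr4a3 held 4 such cores each, and those of Egr2, Egr4 and Npas4 held 2. The full palindromic element TGACGTCA, which contains the core, was in none of the windows of these 6 genes and in 1.79% of all windows. The CArG box was searched as CC, 6 bases of A or T, and GG, with no mismatch allowed. It was found in 4 of the 5 windows of Egr2, some of which overlap and hold the same box. In the window shown it lay 72 bases before the start. It was in 0 of the other 5 genes with a window, against 1.63% of all windows. TATAAA occurred in 1 of the 5 single windows, that of Nr4a2, against 13.6%. The EGR site GCGTGGGCG and the NR4A site AAAGGTCA were in none of them, against 0.612% and 1.51% of all windows. These are matches of letters, not measured binding.

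Counts in genes were between 11400882 and 16962682 per library. Raw counts of the 9 genes ran from 42 for Egr2 in its lowest library to 5794 for Arc in its highest, with Egr2 and Egr4 resting on the fewest counts. Levels below are in CPM, the usual unit of counts per library size, with library sizes adjusted by the trimmed mean of M values (TMM). Neurons were present in the tissue as labelled: the 15 excitatory neuron markers summed to between 2246 and 4464 CPM over the 26 libraries, and none was at 0 throughout a group. Some libraries stood apart from their group. The 11 activated phagocyte markers, among them Spp1 and Lgals3, summed to between 33.8 and 42.1 CPM in sham. Among the 15-week stroke libraries, the sum was 155 CPM in control-diet replicate 3 and 79 CPM in high-fat replicate 1, against 849 to 1843 CPM in the other 8. The 10 choroid plexus markers summed to 280.4 CPM in high-fat sham replicate 2 and to 967 CPM in 6-week high-fat stroke replicate 6, against 8.6 to 82.5 CPM in all other libraries. Results are given with and without these libraries where their removal moved a value by over 1.5 times.

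**Figure D1:**
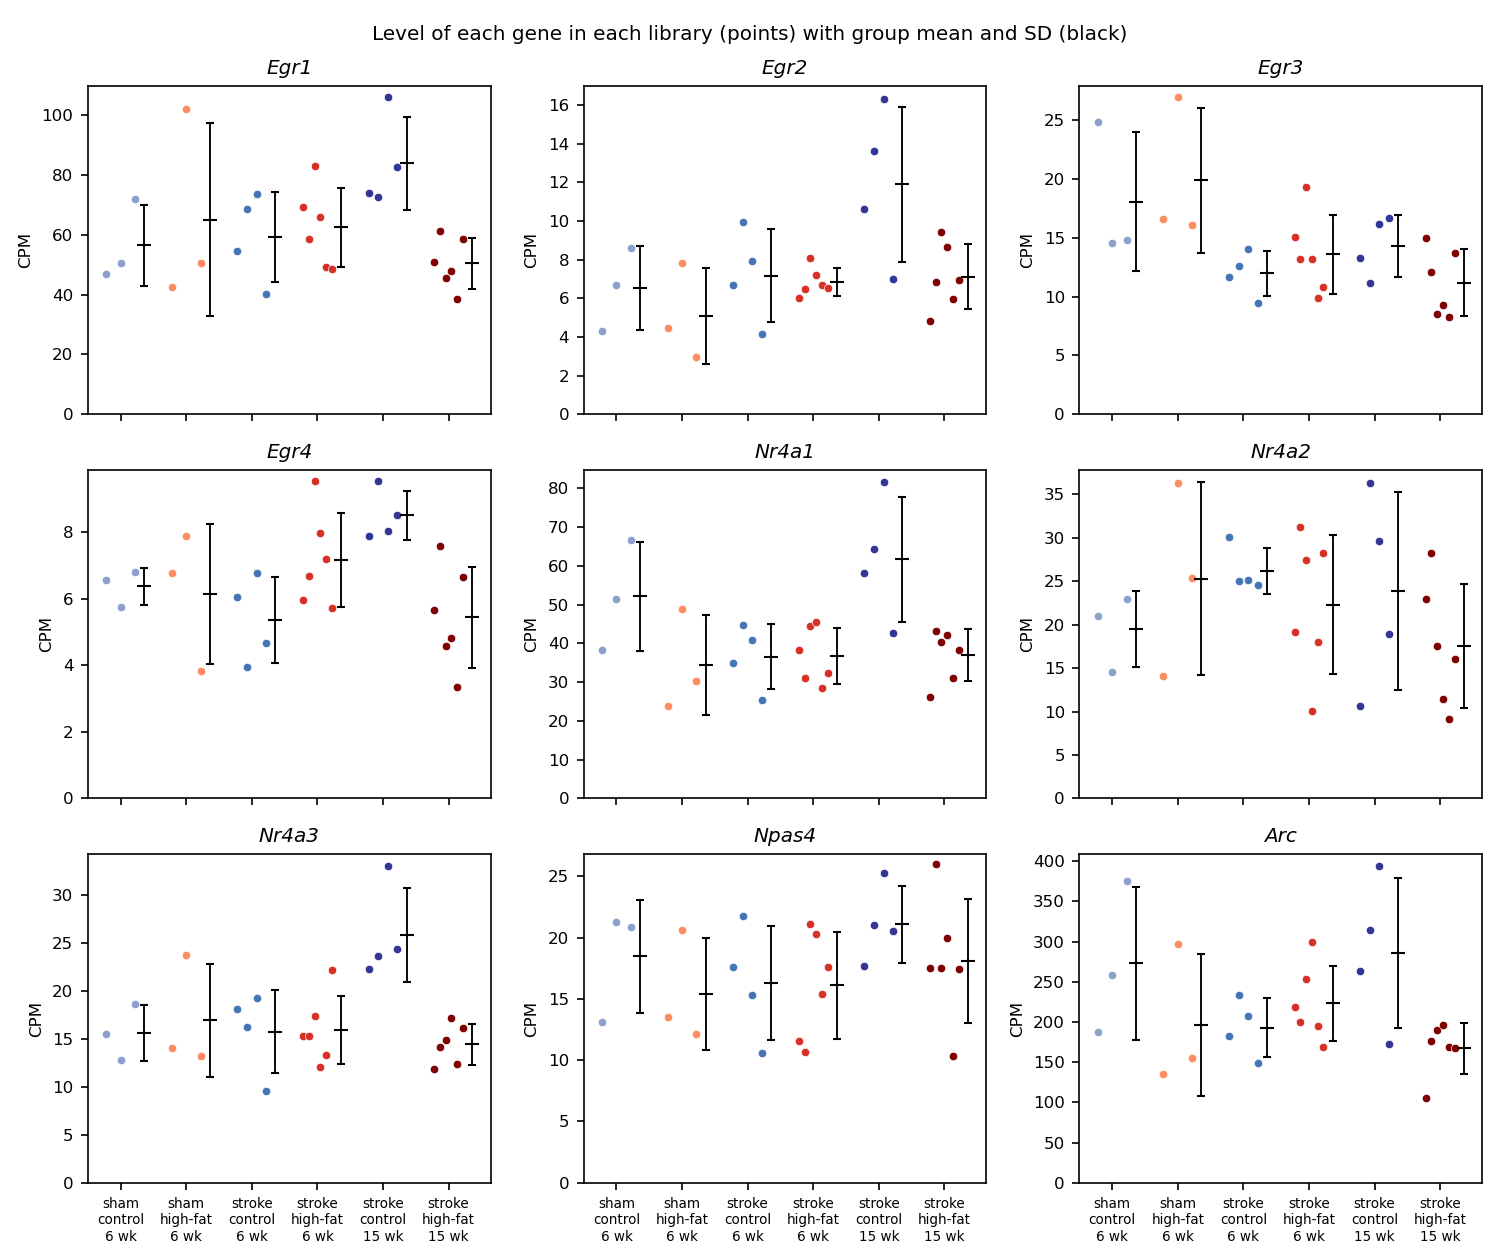
Level of each of the 9 genes in CPM (vertical axis, linear, from 0) in each of the 26 libraries, by group of operation, diet and weeks. Points are libraries and the black mark with bars is the group mean with SD; the control-diet stroke group at 15 weeks has the highest mean for 7 of the 9 genes, and its points overlap with other groups for every gene.

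Per kilobase of exon, Arc was by far the most abundant of the 9 genes, with group means between 54.8 and 93.6 CPM per kb. Egr1 followed with 11.2 to 18.7 CPM per kb and Nr4a1 with 9.79 to 17.6 CPM per kb. The others were lower: Nr4a2 had 4.32 to 6.45, Npas4 3.73 to 5.1, Egr3 2.54 to 4.51, Nr4a3 2.41 to 4.3, Egr4 2.5 to 3.96 and Egr2 1.49 to 3.5 CPM per kb. The same group had the highest mean for most genes, while the order of the other groups differed between genes. Control-diet stroke at 15 weeks was highest for 7 of 9, the exceptions being Egr3, highest in high-fat sham, and Nr4a2, highest in 6-week control-diet stroke. High-fat stroke at 15 weeks was lowest for Egr1, Egr3, Nr4a2, Nr4a3 and Arc. In the order of each gene, the library ranges of every pair of neighbouring groups overlapped.

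In 15-week stroke cortex, all 9 genes had lower fitted levels on the high-fat than on the control diet, with log2 fold changes between -0.84 and -0.22 and a median of -0.73, while the median over all genes tested was 0.00. By edgeR's quasi-likelihood test with Benjamini-Hochberg adjustment over all 16325 genes, 0 of 9 passed an adjusted p of 0.05, and 0% of all genes did. At an unadjusted p under 0.05 stood 6 of the 9 (Nr4a3, Nr4a1, Egr1, Egr4, Arc and Egr2), against 7.96% of all genes. Every high-fat library lay below every control-diet library for 3 of 9 (Egr1, Egr4 and Nr4a3), against 0.711% of all genes. The 9 genes vary together between libraries of a group, so these counts are not 9 separate observations. As the genes were chosen with earlier results of these data known, the shares of all genes are no independent yardstick.

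Among the EGR factors, Egr1, the most abundant of them and a standard marker of neuronal activity, was at 74.0, 72.6, 106 and 82.5 CPM in the control-diet libraries at 15 weeks. On the high-fat diet it ranged from 38.4 to 61.3 CPM with a median of 49.2 CPM (n = 6). The groups do not overlap, and the log2 fold change was -0.73 ± 0.22 (SE, edgeR adjusted p = 0.471). Egr4, a brain-enriched member, was at 7.88, 9.54, 8.04 and 8.52 CPM on the control diet and between 3.36 and 7.57 CPM, median 5.24, on the high-fat diet. Its groups do not overlap either, the control-diet libraries lying close together, and its log2 fold change was -0.65 ± 0.20 (edgeR adjusted p = 0.471). Egr2, best known for its role in myelination and hindbrain patterning and also induced by activity, was at 10.6, 13.6, 16.3 and 7.02 CPM against 4.85 to 9.42 CPM, median 6.91. Its groups overlap through control-diet replicate 4, and the log2 fold change was -0.74 ± 0.25 (edgeR adjusted p = 0.531). Egr3, known from muscle spindles and from memory, was at 13.3, 11.2, 16.2 and 16.7 CPM against 8.3 to 15.0 CPM, median 10.7, and these groups overlap widely. Its log2 fold change was -0.36 ± 0.21 (edgeR adjusted p = 0.684).

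Of the NR4A receptors, Nr4a3 stood first. It was at 22.2, 23.6, 33.0 and 24.3 CPM in control-diet stroke at 15 weeks and between 11.8 and 17.2 CPM, median 14.5, in high-fat stroke. No library of either group lies within the range of the other. The log2 fold change of -0.84 ± 0.19 had an unadjusted p of 0.000215, the 13th smallest of all genes tested, and an edgeR adjusted p of 0.257. DESeq2 called it, with a log2 fold change of -0.83 and an adjusted p of 0.0406, among 0.0941% of the 10628 genes to which it gave an adjusted p. Nr4a1, also called Nur77, was at 58.1, 64.4, 81.6 and 42.6 CPM against 26.2 to 43.1 CPM, median 39.3. Only control-diet replicate 4 reaches into the high-fat range, and the log2 fold change was -0.74 ± 0.21 (edgeR adjusted p = 0.471). Nr4a2, also called Nurr1 and needed for dopamine neurons, was the most variable, at 10.6, 36.3, 29.6 and 18.9 CPM against 9.12 to 28.2 CPM, median 16.8. Its spread within each group is larger than the difference between them (log2 fold change -0.45 ± 0.35, edgeR adjusted p = 0.735), and it was at -0.16 without control-diet replicate 2 and at -0.69 without replicate 1.

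Arc, the only one of the 9 that encodes no transcription factor, was at 263, 315, 394 and 172 CPM on the control diet and at 106 to 196 CPM, median 173, on the high-fat diet. As for Nr4a1, control-diet replicate 4 is the library that overlaps, and the log2 fold change was -0.77 ± 0.24 (edgeR adjusted p = 0.48). Npas4 differed least, at 17.7, 21.0, 25.3 and 20.5 CPM against 10.3 to 26 CPM, median 17.5. Its highest library of all 26 was on the high-fat diet, and its log2 fold change was -0.22 ± 0.23 (edgeR adjusted p = 0.794).

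**Figure D2:**
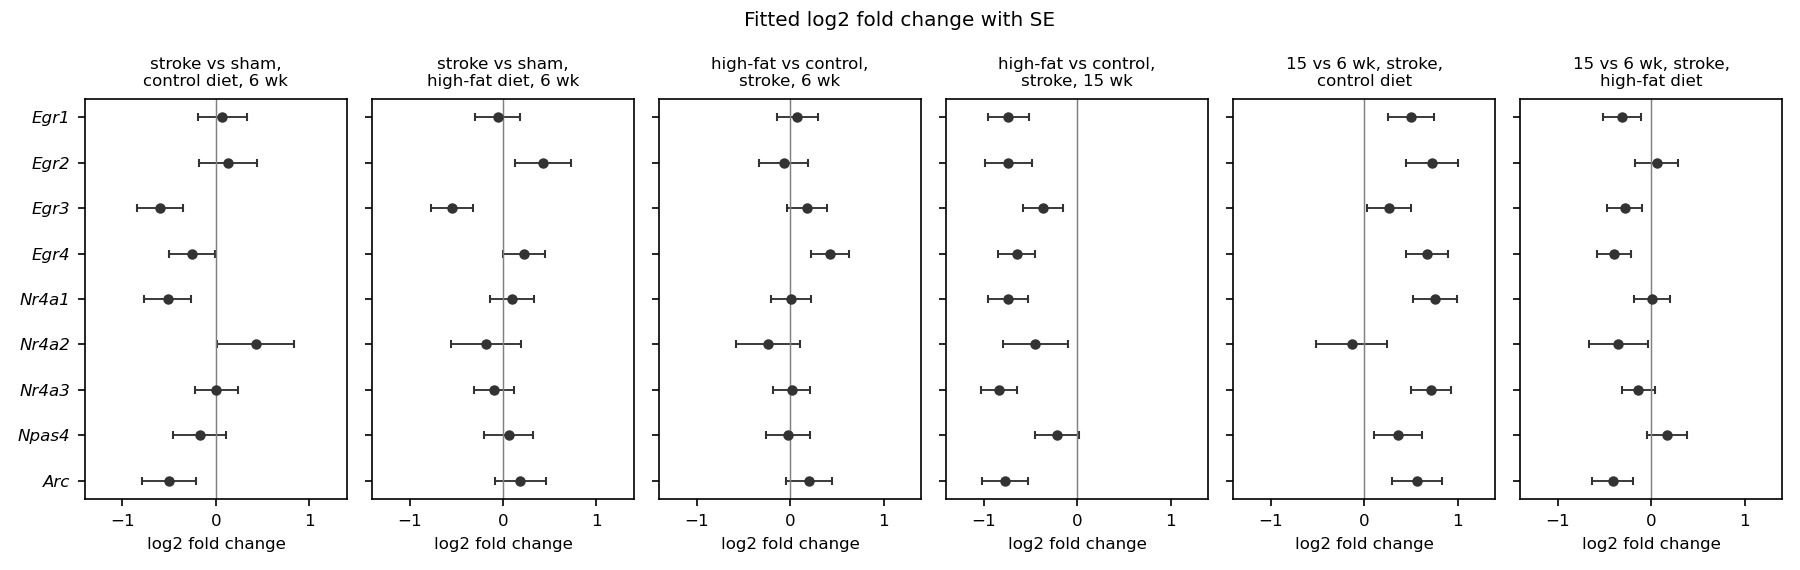
Fitted log2 fold change (horizontal axis) with SE (bars) of each gene in 6 comparisons, some of which share libraries. In the high-fat against control comparison of 15-week stroke all 9 points lie below 0, from -0.84 for Nr4a3 to -0.22 for Npas4, and 0 of 9 pass the adjusted test in any panel.

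Control-diet replicate 3, the library with few phagocyte transcripts, was the highest of its group for Egr1, Egr2, Nr4a1, Nr4a3, Npas4 and Arc. High-fat replicate 1, the other such library, was the lowest of its group for Egr2, Nr4a1, Nr4a3 and Arc but the highest for Egr3. Of the 9 genes, 8 were above the group mean in the first of these libraries and 5 in the second. Without both, the log2 fold change of Arc was -0.47 (edgeR adjusted p = 0.602), that of Egr2 -0.46 (edgeR adjusted p = 0.625), that of Nr4a1 -0.49 (edgeR adjusted p = 0.549) and that of Npas4 -0.11 (edgeR adjusted p = 0.926), each smaller by over 1.5 times. Egr4 was at -0.68 and Nr4a3 at -0.64 without them. The excitatory neuron markers summed to 2816 to 3804 CPM on the control diet and 2246 to 3886 CPM on the high-fat diet at 15 weeks, 14 of 15 had log2 fold changes below 0 and 0 passed the test, with a median of -0.18. The pan-neuronal markers had 0 of 11 above 0 and a median of -0.11, and the inhibitory neuron markers 4 of 10 above 0 and a median of -0.02. With the mean of the excitatory neuron list as a covariate, Egr3 was at -0.07 and Egr1 at -0.49, while Nr4a3 was at -0.74 and Arc at -0.76. The activated phagocyte markers summed to 155 to 1267 CPM and 79 to 1843 CPM, with 11 of 11 log2 fold changes above 0 and a median of 0.56. The 10 striatum markers summed to 229.7 to 609 CPM and 174 to 1458 CPM, with 10 of 10 above 0 and a median of 0.93. The monocyte and neutrophil markers had 9 of 9 above 0 with a median of 0.99, and the hippocampus markers 10 of 10 with a median of 0.37. Of these 4 lists 0 genes passed the test. The part of these markers in the result was not tested.

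At 6 weeks the diet comparison in stroke cortex had no such lean. The log2 fold changes ran from -0.23 to 0.43 with a median of 0.02. By edgeR 0 of 9 genes passed, as did 0% of all genes, and at an unadjusted p under 0.05 stood 1 of 9 against 6.99% of all genes. That gene was Egr4, at 6.05, 3.95, 6.78 and 4.67 CPM on the control diet and 5.71 to 9.55 CPM, median 6.93, on the high-fat diet. Here the high-fat libraries tended to be the higher ones, with overlap (log2 fold change 0.43 ± 0.21, edgeR adjusted p = 0.667). The difference between the 15-week and the 6-week diet comparisons, tested as an interaction, was below 0 for all 9 genes with a median of -0.75. By edgeR 0 of 9 passed the interaction test, and 0% of all genes, while 5 of 9 had an unadjusted p under 0.05 against 4.85% of all genes. Egr4 had the largest interaction, -1.08 ± 0.29, with an unadjusted p of 0.000961 that ranked 9th of all genes and an edgeR adjusted p of 0.946. Arc followed with -0.98 ± 0.35 (edgeR adjusted p = 0.993), Nr4a3 with -0.85 ± 0.28 (edgeR adjusted p = 0.946), Egr1 with -0.81 ± 0.31 and Nr4a1 with -0.75 ± 0.31 (edgeR adjusted p = 0.993 for both). The lean was not particular to the 9 genes. Of the AP-1 and CREB-family genes, 0 of 9 tested had an interaction above 0, with a median of -0.49. The other primary response genes had 2 of 22 above 0 (median -0.36) and the excitatory neuron markers 2 of 15 (median -0.23). Synaptic and secreted effectors had 8 of 20 above 0 (median -0.03) and upstream factors 14 of 23 (median 0.03). The striatum markers had 10 of 10 interactions above 0, with a median of 1.62 and 8 of 10 at an unadjusted p under 0.05, while 0 passed the adjusted test. With the excitatory neuron list as a covariate the interaction of Egr1 was -0.52 (edgeR adjusted p = 0.479). The part of the striatum markers in the result was not tested.

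Both sides of that interaction can be read from the comparisons over weeks, which use the same 20 stroke libraries and are no separate evidence. On the control diet, 8 of 9 genes were higher at 15 than at 6 weeks, all but Nr4a2, with log2 fold changes up to 0.76 and a median of 0.57. By edgeR 0 of 9 passed, against 0.564% of all genes, and 5 of 9 had an unadjusted p under 0.05 against 16.8% of all genes. Nr4a3 was at 18.1, 16.2, 19.2 and 9.55 CPM at 6 weeks, all below its lowest 15-week library, with a log2 fold change of 0.71 ± 0.21 (edgeR adjusted p = 0.119). Egr4 did not overlap either, the 6-week values being those given above (0.67 ± 0.22, edgeR adjusted p = 0.149). These were 2 of 9 genes whose 15-week libraries all lay above the 6-week ones, against 3.45% of all genes. Nr4a1 was at 34.9, 44.7, 40.9 and 25.5 CPM at 6 weeks, and only replicate 4 of the 15-week group came down to that range (0.76 ± 0.24, edgeR adjusted p = 0.138). DESeq2 called Nr4a1, with a log2 fold change of 0.77 and an adjusted p of 0.0426, and Nr4a3, with 0.73 and an adjusted p of 0.042, among 2.33% of the 11894 genes it adjusted. Egr2 had a log2 fold change of 0.73 ± 0.28 (edgeR adjusted p = 0.199), Arc one of 0.57 ± 0.27 (edgeR adjusted p = 0.293) and Egr1 one of 0.50 ± 0.24 (edgeR adjusted p = 0.298). With each library's share of counts that fell in no gene as a covariate, Nr4a3 was at 0.47 (edgeR adjusted p = 0.594). In this comparison 0 of 10 striatum markers were above 0, with a median of -1.39 and 7 of 10 at an unadjusted p under 0.05, their sums being 581 to 1204 CPM at 6 weeks and 229.7 to 609 CPM at 15 weeks. Their part in the result was not tested either.

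On the high-fat diet the comparison over weeks was small for most of the 9, with a median of -0.28 and 6 of 9 below 0. By edgeR 0 of 9 passed, against 2.35% of all genes, and 1 of 9 had an unadjusted p under 0.05 against 17.7% of all genes. Egr4 was lower at 15 weeks by a log2 fold change of -0.40 ± 0.18 (edgeR adjusted p = 0.245) and Arc by -0.41 ± 0.22 (edgeR adjusted p = 0.341). Arc ranged from 169 to 299.7 CPM, median 209, in high-fat stroke at 6 weeks, and the group overlaps with the 15-week libraries.

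Against sham cortex at 6 weeks, the 9 genes did not move in 1 direction. On the control diet 5 were below and 4 above sham, from -0.60 to 0.43, with a median of -0.18. By edgeR 0 of 9 passed, against 7.68% of all genes, and 1 of 9 had an unadjusted p under 0.05 against 23.2% of all genes. Egr3 was that gene, at 24.9, 14.6 and 14.8 CPM in sham and 11.7, 12.6, 14.1 and 9.48 CPM in stroke. Every stroke library was below every sham library, by a narrow margin from the lower sham libraries (log2 fold change -0.60 ± 0.25, edgeR adjusted p = 0.138). Nr4a2 was the opposite case, at 21.0, 14.5 and 22.9 CPM in sham and 30.1, 25.0, 25.1 and 24.6 CPM in stroke, every stroke library being higher (0.43 ± 0.41, edgeR adjusted p = 0.587). Each was thus 1 of 9 genes without overlap in its direction, against 11.6% of all genes for lower and 14.9% for higher in stroke. Nr4a1 was at 38.3, 51.5 and 66.5 CPM in sham (-0.52 ± 0.25, edgeR adjusted p = 0.222) and Arc at 187, 258 and 375 CPM in sham and 182, 234, 208 and 149 CPM in stroke (-0.50 ± 0.29, edgeR adjusted p = 0.31). For both, sham replicate 1 lay within the stroke range. Single sham libraries set the size of these values: Egr3 was at -0.30 without control-diet sham replicate 1, Arc at -0.21 and Nr4a1 at -0.31 without replicate 3, and Nr4a2 at 0.24 without replicate 2. With the excitatory neuron list as a covariate, Egr3 was at -0.29 and Nr4a2 at 0.74. The limma voom fit with quality weights called Nr4a1, with a log2 fold change of -0.62 and an adjusted p of 0.0282, among 17.5% of all genes.

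On the high-fat diet the stroke comparison ran from -0.55 to 0.43 with a median of 0.06. By edgeR 0 of 9 passed, against 23.1% of all genes, and 1 of 9 had an unadjusted p under 0.05 against 36.1% of all genes. Egr3 was at 16.6, 27.0 and 16.1 CPM in sham and 9.88 to 19.3 CPM, median 13.2, in stroke (log2 fold change -0.55 ± 0.22, edgeR adjusted p = 0.0784). Leaving out 6-week high-fat stroke replicate 3, its highest stroke library, brought Egr3 to -0.68 with an edgeR adjusted p of 0.0295. In this comparison 5 of the 15 excitatory and 6 of the 11 pan-neuronal markers fell, each list with a median of -0.30, as did 1445 of all 16325 genes. With the mean of the excitatory list as a covariate, Egr3 was at -0.11 (edgeR adjusted p = 0.789). Without both libraries high in choroid plexus markers it was at -0.20 (edgeR adjusted p = 0.648). The part of neuron content in the value of Egr3 was not tested beyond this. Egr2 was at 4.47, 7.8 and 2.97 CPM in sham and 6.02 to 8.07 CPM, median 6.59, in stroke (0.43 ± 0.30, edgeR adjusted p = 0.315), and without the same libraries it was at 0.90 (edgeR adjusted p = 0.0925). Egr4 was at 6.77, 7.87 and 3.82 CPM in sham and 5.71 to 9.55 CPM in stroke (0.22 ± 0.22, edgeR adjusted p = 0.504), and at 0.51 (edgeR adjusted p = 0.197) without those libraries. Sham replicate 3 is low for both Egr2 and Egr4, and without it they were at 0.15 and -0.028. The voom fit called Egr2, with a log2 fold change of 0.91 and an adjusted p of 0.0144, and Egr4, with 0.64 and an adjusted p of 0.016, among 35.7% of all genes.

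In sham cortex the diet comparison gave 0 of 9 by edgeR, as for 0% of all genes, with 1 of 9 at an unadjusted p under 0.05 against 4.79% of all genes. Nr4a1 was at 38.3, 51.5 and 66.5 CPM on the control diet and 23.8, 48.9 and 30.4 CPM on the high-fat diet, with overlap (-0.60 ± 0.27, edgeR adjusted p = 0.965). Arc was at 135, 297 and 155 CPM on the high-fat diet (-0.48 ± 0.31, edgeR adjusted p = 0.965). In both genes replicate 2 of the high-fat group, which was also high in choroid plexus markers, stood above the other 2 libraries. Without the libraries high in choroid plexus markers, Nr4a1 was at -0.93 and Arc at -0.90 (edgeR adjusted p = 1 for both), and without control-diet sham replicate 3 they were at -0.37 and -0.17. The interaction of operation and diet at 6 weeks gave 0 of 9 by edgeR, 0% of all genes, and 0 of 9 at an unadjusted p under 0.05 against 5.6% of all genes. Arc had the largest value there, 0.69 ± 0.40, and Nr4a1 was at 0.61 ± 0.35 (edgeR adjusted p = 0.832 for both). Without the choroid plexus-high libraries these were 1.21 and 1.01 (edgeR adjusted p = 0.964 for both), and without control-diet sham replicate 3 they were 0.40 for each.

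Within groups the 9 genes varied together. After each library was expressed as its deviation in log2 CPM from the group mean, all 36 pairs of genes had a correlation above 0 over the 26 libraries, with a median r of 0.462. These libraries share depth and tissue cut with all genes, and r is a description. Nr4a1 and Arc were the closest pair (r = 0.943), followed by Egr2 with Arc (r = 0.868) and Egr2 with Nr4a1 (r = 0.846), and Egr2 and Egr3 were the least alike (r = 0.023). Egr1 was closest to the mean of the 9 (r = 0.912) and Nr4a2 farthest (r = 0.502). High-fat sham replicate 2 and 6-week high-fat stroke replicate 3 had all 9 genes above their group mean, by 0.582 and 0.349 on average. Replicate 4 of control-diet stroke at 6 weeks and replicate 1 at 15 weeks had 0 of 9 above it, with average deviations of -0.43 and -0.225. The first of these had the lowest activated phagocyte sum of its group, 182 CPM, and the second the highest of its group, 1267 CPM.

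**Figure D3:**
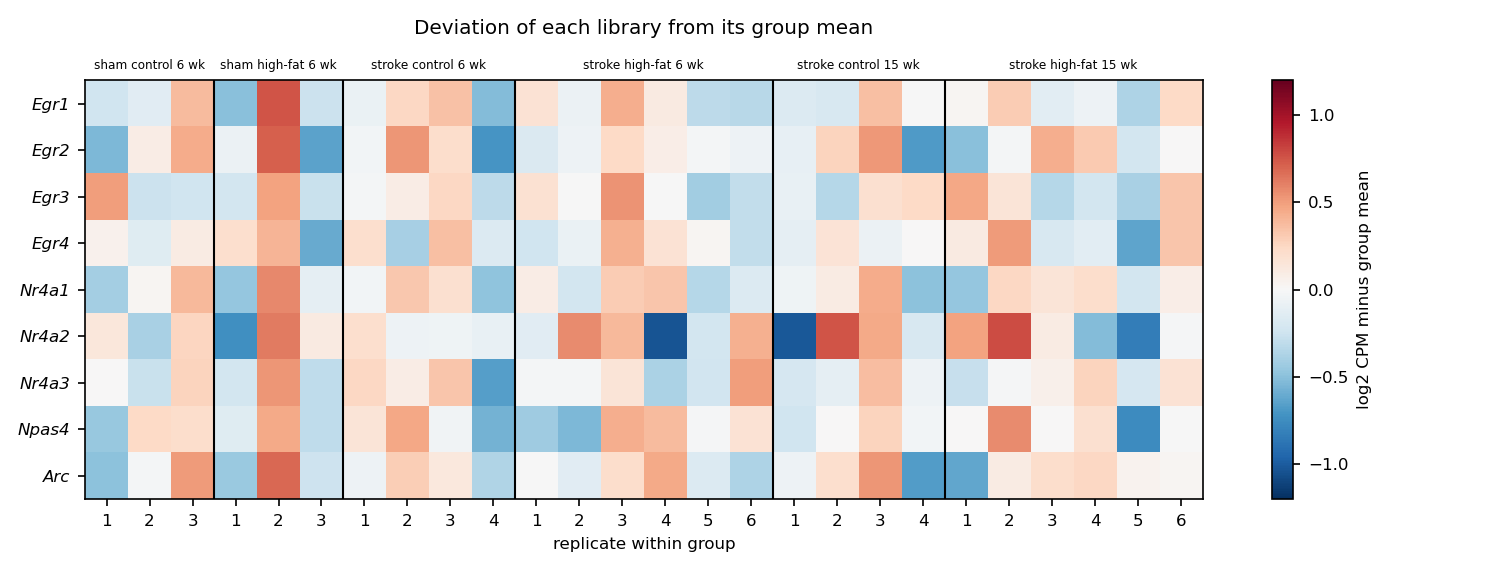
Deviation of each library (columns, grouped by operation, diet and weeks) from its group mean in log2 CPM (colour, red higher and blue lower) for the 9 genes (rows). Whole columns share a colour, as in high-fat sham replicate 2, where all 9 genes are above the mean, while Nr4a2 departs from its columns in several libraries.

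The 8 genes whose deviations were most like the mean of the 9, among 11530 named genes with a mean of at least 5 CPM that are not among the 9, were Ago3 (r = 0.8), Wbp11 (r = 0.763), Stau1 (r = 0.762), Per1 (r = 0.761), Srrm2 (r = 0.748), Srcap (r = 0.746), Pdcd6ip (r = 0.745) and Brd3 (r = 0.743), all over 26 libraries. Per1, a clock gene, is also inducible by CREB. Over the same libraries the deviations of the AP-1 list had r = 0.609 with the mean of the 9, the other primary response genes 0.591, the homeostatic astrocyte markers 0.59, the excitatory neuron markers 0.412, the synaptic effectors 0.232 and the activated phagocyte markers -0.032. The glucocorticoid response list, which follows stress hormones, had r = -0.367.

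Other genes of the same response were read from lists. In the diet comparison of 15-week stroke, 0 genes of any list passed the edgeR test. Among AP-1 and CREB-family genes, 9 of 10 were tested and 6 of 9 were below 0, with a median log2 fold change of -0.22. Those with the smallest p were Fosl2 (-0.45), Junb (-0.42), Crem (-0.22) and Fos (-0.55), with edgeR adjusted p between 0.499 and 0.609. Of 22 other primary response genes 19 were below 0, with a median of -0.25, led by the MAP kinase phosphatases Dusp4 (-0.41) and Dusp6 (-0.33), the kinase Plk2 (-0.15) and Klf4 (-0.38). Among 20 synaptic and secreted effectors 14 were below 0, with a median of -0.13, led by the prohormone convertase Pcsk1 (-0.45, edgeR adjusted p = 0.257), the neuropeptide Cort (-0.58), the postsynaptic scaffold Homer1 (-0.43) and Syt4 (-0.24). Of 23 upstream factors 15 were below 0 with a median of -0.03, led by the CREB coactivator Crtc2 (-0.29) and Mef2c (-0.34). Nab2, a corepressor that EGR proteins induce, was at -0.42 ± 0.10 (edgeR adjusted p = 0.257), while the median of its list of 9 partners was 0.00. The 9 genes themselves had the median farthest below 0 of these 6 lists, a difference that was not tested.

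On the control diet, 15 against 6 weeks gave 1 call in each of 4 lists, with 0.564% of all genes called. Junb, an AP-1 subunit, rose by 0.74 ± 0.17 (edgeR adjusted p = 0.0448), 1 of 9 tested in its list. Klf4, a Kruppel-like factor, rose by 1.06 ± 0.18 (edgeR adjusted p = 0.0357), 1 of 22. Crtc2 rose by 0.46 ± 0.10 and Arnt, a partner of Npas4, by 0.33 ± 0.07 (edgeR adjusted p = 0.0448 for both), 1 of 23 and 1 of 9. As a list, the AP-1 and CREB-family genes had 8 of 9 above 0 in this control-diet comparison, with a median of 0.38. The other primary response genes had 19 of 22 above 0, with a median of 0.39. In these lists 3 of 9 and 11 of 22 had an edgeR unadjusted p under 0.05, against 16.8% of all genes. Upstream factors had 11 of 23 above 0 and a median of -0.07. The 20 effectors had a median of -0.180 in the same comparison, with 3 above 0 and 0 called. On the high-fat diet over the same weeks, 2.35% of all genes were called and 6 of 20 effectors fell. Their list had a median of -0.185 there, with 7 of 20 above 0. Among those that fell were Cort (-0.78, edgeR adjusted p = 0.00628), Homer1 (-0.62, edgeR adjusted p = 0.00748) and Pcsk1 (-0.44, edgeR adjusted p = 0.0107). Srf, the factor of the CArG box, fell by 0.31 on the log2 scale (edgeR adjusted p = 0.0315) and its partner Elk4 rose by 0.29 (edgeR adjusted p = 0.0381), in a list of 23 with a median of 0.02.

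In stroke against sham on the high-fat diet 23.1% of all genes were called, 2324 higher and 1445 lower of 16325. In the AP-1 list 4 of 9 rose and 0 fell, namely Jun (0.84, edgeR adjusted p = 0.000239), the stress-induced Atf3 (3.42, edgeR adjusted p = 0.000553), Junb (0.75, edgeR adjusted p = 0.00375) and Maff (1.97, edgeR adjusted p = 0.00556). Of 22 other primary response genes 3 rose and 0 fell, a share near that of all genes that rose. They were the matricellular Cyr61 (1.59), the stress phosphatase subunit Ppp1r15a (0.45) and Gadd45g (0.64). Of 20 effectors 9 fell and 0 rose, with a list median of -0.26, led by Pcsk1 (-0.52), Sorcs3 (-0.59), Homer1 (-0.63) and Inhba (-0.79), with edgeR adjusted p between 0.00118 and 0.00818. Upstream, the kinase Rps6ka1 rose (1.00) and Camk2a (-0.54) and Rps6ka2 (-0.33) fell, 3 of 23 in all, and 0 of the 9 partners and corepressors was called. These list counts stand beside 5 of 15 excitatory neuron markers that fell and 10 of 11 activated phagocyte markers that rose. On the control diet, where 7.68% of all genes were called, Jun (0.76, edgeR adjusted p = 0.00317) and Atf3 (2.47, edgeR adjusted p = 0.0179) rose, Dusp14 (-0.38, edgeR adjusted p = 0.0477) was the 1 effector of 20 that fell, and the corepressor Nab1 rose (0.22, edgeR adjusted p = 0.047).

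**Figure D4:**
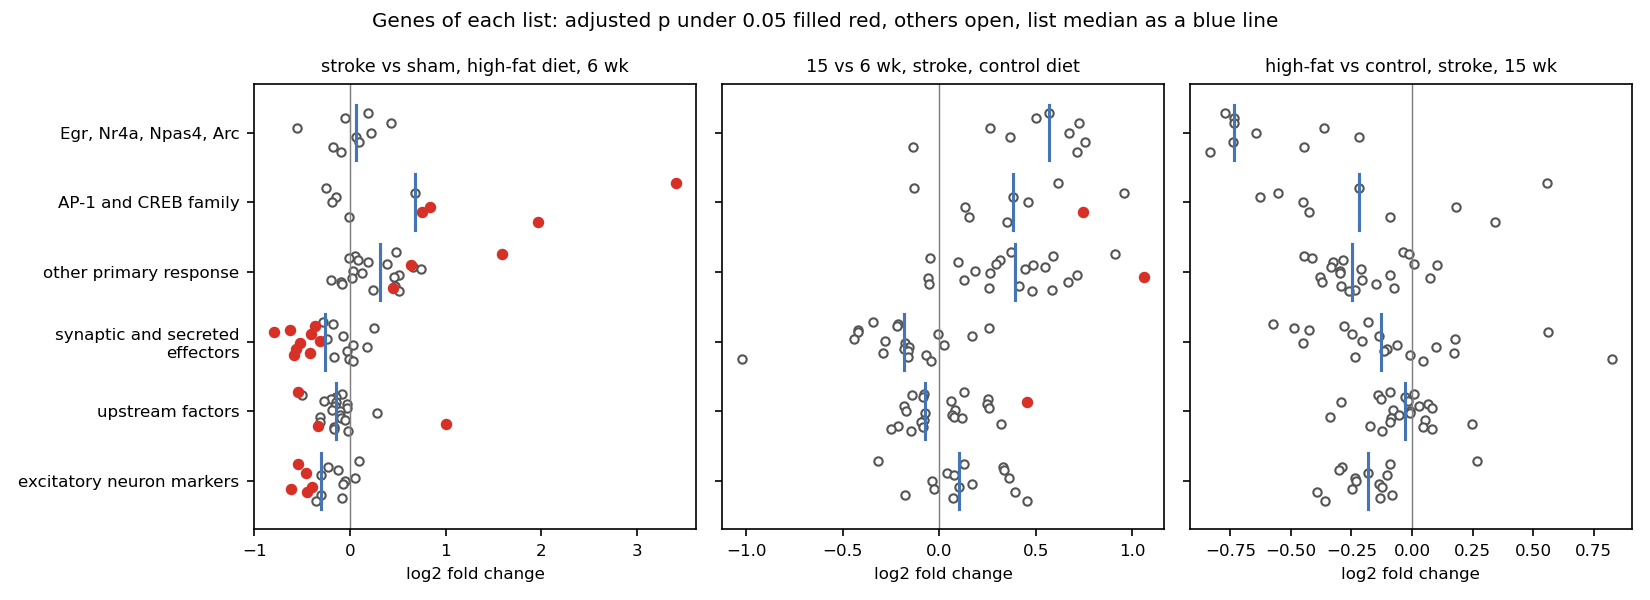
Log2 fold change (horizontal axis, scaled separately in each panel) of the genes of 6 lists in 3 comparisons; filled red points have an edgeR adjusted p under 0.05 and blue lines are list medians. The 9 genes have no filled point in any panel, with a median of 0.06, 0.57 and -0.73 from left to right, while 4 of 9 AP-1 genes rose and 9 of 20 effectors fell after stroke on the high-fat diet, where 23.1% of all genes were called.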

How the data were processed

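Trizol extracts of frozen tissue became stranded total RNA libraries that were read from both ends, per the labels' protocols. For mm9, the submitters' processing notes name HTSeq, featureCounts, STAR and Trim Galore, with no order, version or annotation. Each library has 1 deposited table of raw counts by Ensembl identifier, in which no normalization by the authors is visible. Summary entries held 45.69% to 58.16% of each file and were left out. Names came from GENCODE M21, which matched 37607 of 39179 identifiers. As these identifiers are later than mm9, the only coordinates given are those of the promoter windows, on GRCm38.p6. Exon lengths are those of M21, where no other gene's exons overlap the 9 genes.

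Genes passing filterByExpr (edgeR 4.0.16 in R 4.3.3, minimum count 10) were scaled by TMM and fitted with 1 mean per group over all 26 libraries by robust quasi-likelihood. Each of 9 contrasts was tested at an adjusted p of 0.05 (Benjamini-Hochberg). The SE is the log2 fold change divided by the square root of F. The fit was tested on simulated data. Alternatives were RLE size factors, DESeq2 1.42.0, limma 3.58.1 voom with quality weights, no filter, only the groups compared, 2 covariates and libraries left out. The genes, lists and alternatives were chosen with earlier results of these data known. Genes outside the 9 are named by rule: up to 4 per list with the smallest p in the contrast, and the 8 most alike in pattern. Promoter windows are from RefSeq (GRCm38.p6).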

Additional observations from a re-analysis of the deposited data

Results flagged for a closer look

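Nr4a2 was at 30.1 CPM in replicate 1 of control-diet stroke at 6 weeks, apart from the other libraries of its group at 24.6 to 25.1 CPM. Arc was at 106 CPM in replicate 1 of high-fat stroke at 15 weeks, where the other 5 libraries were at 167 to 196 CPM. That library also had the lowest activated phagocyte sum of its group. In all, 36 gene and group combinations were examined for such libraries, and chance alone sets apart about 1 in 20.

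Egr1 moved in opposite directions over weeks on the diets: every control-diet stroke library at 15 weeks was above the 6-week group mean, and every high-fat library at 15 weeks was below its 6-week mean. The interaction was -0.81 on the log2 scale, with an edgeR adjusted p of 0.993. Egr4 did so for the diet within weeks, with every high-fat library above the control-diet mean at 6 weeks and below it at 15 weeks. Its interaction was -1.08 (edgeR adjusted p = 0.946).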

How the results depend on the processing

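The count of the 9 genes past an adjusted p of 0.05 was 0 in every comparison under edgeR with RLE size factors, with no filter, with only the groups compared, with either covariate and without the pairs of libraries that stood apart. It became 1 (Nr4a1) and 2 (Egr2 and Egr4) with voom for the stroke comparisons on control and high-fat diet, and 1 (Nr4a3) and 2 (Nr4a1 and Nr4a3) with DESeq2 for diet in 15-week stroke and for weeks on the control diet; the cause was not tested. Leaving out single libraries gave 0 to 1 for stroke against sham on the high-fat diet, the 1 being Egr3 without replicate 3 of the high-fat stroke group, and 0 in the other comparisons. For diet in 15-week stroke, log2 fold changes over 18 settings ran from -0.92 to -0.64 for Nr4a3 (adjusted p 0.0406 to 0.943), -0.80 to -0.49 for Egr1, -0.76 to -0.49 for Egr4 and -0.95 to -0.47 for Arc. They were least stable for Nr4a2, -0.69 to -0.16, Npas4, -0.35 to -0.07, and Egr3, -0.47 to -0.07. Of the values of single genes under alternatives, 638 kept their direction and side of the threshold, 7 newly passed it and 1 turned: Egr4 in the stroke comparison on the high-fat diet, from -0.028 without sham replicate 3 to 0.45 without sham replicate 2 as single libraries are left out. No paired analysis was possible because the labels carry no replicate numbers, those used here only naming the libraries. Egr2 and Egr4, the genes with the fewest counts, had 42 to 203 and 53 to 155 per library, and groups held 3 to 6 libraries.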
